A study of Homo sapiens with 18 samples.

Results

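The Kruppel-like factors described here were 10 genes, KLF2, KLF3, KLF4, KLF5, KLF6, KLF7, KLF9, KLF10, KLF11 and KLF13, taken by their symbol from a gene count matrix of 62754 genes. RNA sequencing was done on EA.hy926 cells, a human endothelial line made by fusing umbilical vein endothelial cells with the lung epithelial line A549. Cells received the transfection reagent alone (Mock), 10 nM of a non-targeting siRNA (siNT), or 10 nM of a pool of 3 siRNAs against ELMO1 (siELMO1). ELMO1 is an adaptor of the DOCK guanine nucleotide exchange factors that activate RAC1. All cells were kept overnight in low serum and were collected 48 h after transfection (called 0 h) or were given 1 μg/ml poly(I:C) then and collected 24 h later. Poly(I:C) is a double-stranded RNA mimic that activates TLR3. The 6 conditions were sequenced as 3 libraries each, which made 18. No library was collected at 24 h without poly(I:C), so the effect of poly(I:C) and that of 24 h more in culture cannot be told apart. All siRNAs of the pool target a single gene and none of these libraries was a rescue, so effects of the pool other than the loss of ELMO1 cannot be told apart from it.

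Kruppel-like factors are transcription factors with C-terminal zinc fingers that bind GC-rich and CACCC-containing DNA. KLF2 and KLF4 are induced by laminar flow through the MEK5, ERK5 and MEF2 route in endothelium, where they raise anticoagulant and vasodilator genes such as THBD and NOS3 and restrain inflammatory genes. KLF3 recruits the corepressor CtBP, whereas KLF9, KLF10, KLF11 and KLF13 share a repression domain that binds SIN3A. KLF5, KLF6 and KLF7 act mostly as activators in growth, injury responses and development.

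Library totals lay between 40374756 and 73850946 counts. ELMO1, in CPM (counts scaled to the library total by TMM factors and expressed per M counts, mean ± SD, n = 3), averaged 3.02 ± 0.0288 at 0 h for Mock, 2.95 ± 0.339 for siNT and 0.340 ± 0.0687 for siELMO1. The 24 h means were 2.32 ± 0.738, 3.32 ± 0.307 and 0.268 ± 0.104 CPM, so each siELMO1 library was below every control library at both times. In siELMO1 at 0 h, replicate 1 differed from replicates 2 and 3 far more than these did from each other. Its mitochondrial share of counts was 1.86%, within the 1.31 to 2.42% of the other conditions, while replicates 2 and 3 had 4.02% and 3.95%. Replicates 2 and 3 also had the lowest totals of the 18 libraries (40.4 and 51 M counts, against 71.1 M for replicate 1). Values of the members and counts of the gene lists that rest on this condition are also given without replicate 1. The part of the mitochondrial share and of depth in them was not tested. Such fits keep replicates 2 and 3, and do not show which libraries were atypical. Of 12 endothelial markers 10 were expressed, CDH5 and PECAM1 among them, while CLDN5 and EMCN were at or near 0. Of 10 epithelial markers 5 passed the filter, with KRT7, KRT8 and KRT18 abundant and CDH1 at 0 in all libraries. The summed endothelial markers were higher in siELMO1 (2010 to 2110 CPM at 0 h and 1990 to 2400 CPM at 24 h) than in Mock (1310 to 1420 and 1160 to 1440 CPM) or siNT (1480 to 1560 and 1430 to 1590 CPM). Not every marker followed the sum: at 0 h EGFL7 averaged 209 CPM in siELMO1 and 311 CPM in siNT, and PECAM1 225 and 314 CPM. The summed epithelial markers were lower at 24 h, going from 1520 to 1540 CPM to 850 to 868 CPM in Mock, from 1880 to 1910 CPM to 1020 to 1060 CPM in siNT, and from 2110 to 2230 CPM to 1110 to 1320 CPM in siELMO1. MUC1, of low abundance, rose instead, from 2.65 to 5.97 CPM in Mock. The part of these marker shifts in the results below was not tested, and in bulk RNA fewer cells of a kind and less RNA per cell cannot be told apart.

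Per length, KLF6 and KLF2 were the most abundant members, and KLF4 had the widest range. In TPM, the share of transcripts with each transcript's count divided by its length, KLF6 averaged 97.3 over the 18 libraries, KLF2 82.9, KLF10 54.4, KLF3 45.7, KLF4 41.6, KLF13 30.6, KLF7 14.1, KLF11 10.2, KLF9 4.48 and KLF5 0.122. The range of the single libraries was 59.8 to 146 TPM for KLF6 and 37.2 to 125 TPM for KLF2. For KLF4 it was 3.85 to 134 TPM, so KLF4 was among the lowest members in unstimulated cells and among the highest in stimulated Mock cells. KLF5, a growth-promoting factor of smooth muscle and epithelia, had 0 to 27 counts per library and failed the filter on low values (a total of at least 100 counts and 1 CPM in at least 1 library), so 9 of the 10 members were tested. Its 2 libraries with 0 counts, siNT at 0 h replicate 2 and siNT at 24 h replicate 1, allow up to 0.0493 and 0.0573 CPM (3 counts, counting error only).

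**Figure D1:**
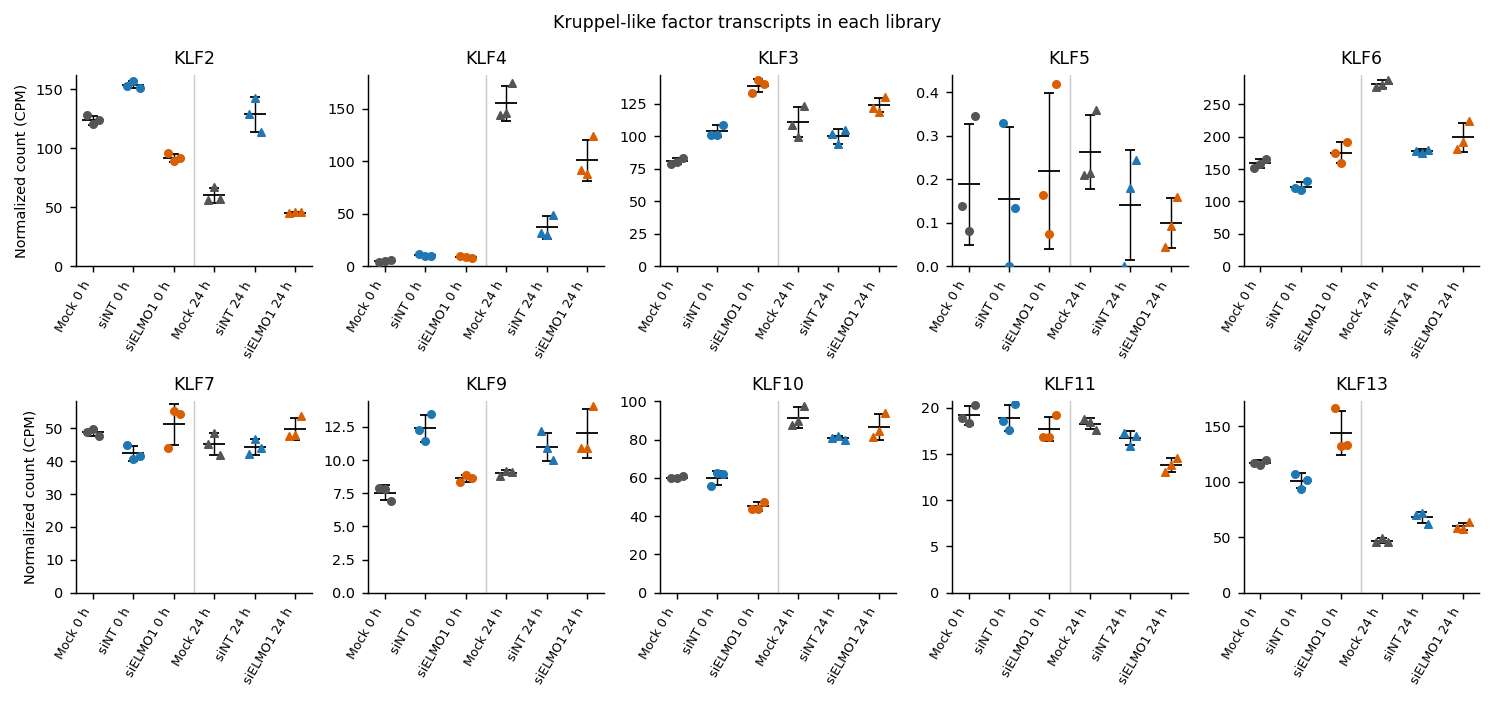
TMM-scaled CPM of the 10 Kruppel-like factors in the 18 libraries, with circles for 0 h, triangles for 24 h after poly(I:C), and black bars for the mean and SD of 3 libraries. KLF4 rose from 5.39 to 155 CPM in Mock, KLF2 and KLF13 were lower at 24 h than at 0 h in each transfection, KLF7 stayed between 40.8 and 55.3 CPM, and KLF5 stayed below 0.5 CPM.

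KLF2, KLF4 and KLF13 moved furthest across the conditions, and the 250 bases before their start sites are shown because KLF2 and KLF13 fell after poly(I:C) while KLF4 rose. The sequences were taken from a set of RefSeq promoters (GRCh38.p14). The set used here held windows for 8 of the 10 members, with 13 start sites among them. KLF2 starts on the forward strand of chromosome 19, and its window was chr19:16324576-16324825. KLF4 lies on the reverse strand of chromosome 9, and its window was chr9:107489770-107490019, upstream of the leading transcript KLF4-201 but inside the bounds of the annotated gene, and outside its exons. KLF13 lies on the forward strand of chromosome 15, and its window was chr15:31326585-31326834. Capitals mark CCAAT boxes (CCAAT, or ATTGG on the other strand) and the CACCC core, the only letters searched for that were found in these 3 windows.
KLF2: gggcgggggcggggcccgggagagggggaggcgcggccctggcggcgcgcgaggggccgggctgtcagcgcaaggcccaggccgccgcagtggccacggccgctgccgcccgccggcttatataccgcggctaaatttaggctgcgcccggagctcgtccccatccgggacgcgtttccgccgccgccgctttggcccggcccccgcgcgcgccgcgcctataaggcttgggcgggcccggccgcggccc
KLF4: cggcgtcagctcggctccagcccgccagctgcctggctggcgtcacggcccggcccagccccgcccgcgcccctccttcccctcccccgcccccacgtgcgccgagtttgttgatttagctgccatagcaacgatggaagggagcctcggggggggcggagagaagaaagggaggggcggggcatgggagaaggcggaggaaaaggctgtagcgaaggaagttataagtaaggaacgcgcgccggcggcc
KLF13: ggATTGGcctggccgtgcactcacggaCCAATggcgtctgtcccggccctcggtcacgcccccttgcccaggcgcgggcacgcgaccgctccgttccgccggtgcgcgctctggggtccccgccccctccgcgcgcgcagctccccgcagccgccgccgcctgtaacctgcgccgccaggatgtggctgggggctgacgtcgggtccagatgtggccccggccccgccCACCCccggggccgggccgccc
The GC content was 80% for KLF2, 69.2% for KLF4 and 78.8% for KLF13, against a median of 58% over 35116 windows of all genes. The CACCC core occurred in 54.7% of all windows, CCAAT in 32%, TATAAA in 10.7%, the AP-1 motif TGACTCA in 4.2%, the interferon response core AAANNGAAA in 9.2%, the NF-kB cores GGANTTTCC and GGAAATTCC in 1.45%, and the MEF2 cores TATTTATAG, TAAAAATAG and TATAAATAG in 1.01% (both strands). None of the 13 windows held the AP-1, NF-kB, interferon response or MEF2 letters, which says only that these letters were not in these windows.

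KLF2, the flow-induced factor of quiescent endothelium, was lower at 24 h than at 0 h in all 3 transfections, and the fall was smallest in siNT. The Mock libraries held 128, 121 and 124 CPM at 0 h, then 56.6, 67.5 and 56.9 CPM at 24 h. The siNT libraries went from 153, 157 and 151 CPM to 129, 143 and 114 CPM. The siELMO1 libraries went from 95.9, 89.0 and 91.8 CPM to 45.1, 46.0 and 45.8 CPM. No 24 h library reached the 0 h libraries of its own transfection, but the siNT libraries at 24 h spanned the level of unstimulated Mock cells. The log2 fold change was −1.04 in Mock (SE 0.07, adjusted p = 1.0e-09, edgeR), −0.26 in siNT (SE 0.07, adjusted p = 5.6e-03, edgeR) and −1.02 in siELMO1 (SE 0.07, adjusted p = 2.3e-09, edgeR). From the highest to the lowest mean, the order was siNT 0 h, siNT 24 h, Mock 0 h, siELMO1 0 h, Mock 24 h and siELMO1 24 h, and siNT 24 h and Mock 0 h were the only neighbours whose libraries overlapped.

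KLF4, which shares many endothelial targets with KLF2, rose in all 3 transfections and by far the most in Mock. The Mock libraries went from 4.54, 5.44 and 6.2 CPM to 144, 146 and 174 CPM. In siNT it went from 11.7, 10.3 and 10.0 CPM to 31.7, 30.1 and 49.1 CPM. In siELMO1 it went from 10.0, 9.12 and 7.71 CPM to 91.5, 88.2 and 124 CPM. All 24 h libraries were above all 0 h libraries, and at 24 h the 3 conditions did not overlap. The log2 fold change was 4.84 in Mock (SE 0.20, 28.6-fold, adjusted p = 4.9e-13, edgeR), 1.79 in siNT (SE 0.18, 3.46-fold, adjusted p = 1.4e-07, edgeR) and 3.49 in siELMO1 (SE 0.19, 11.2-fold, adjusted p = 3.2e-11, edgeR). Without siELMO1 at 0 h replicate 1, the value in siELMO1 was 3.59. A lncRNA gene, ENSG00000289987, overlaps KLF4 on the other strand with 0 to 42 counts per library, against 297 to 10136 counts for KLF4.

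**Figure D2:**
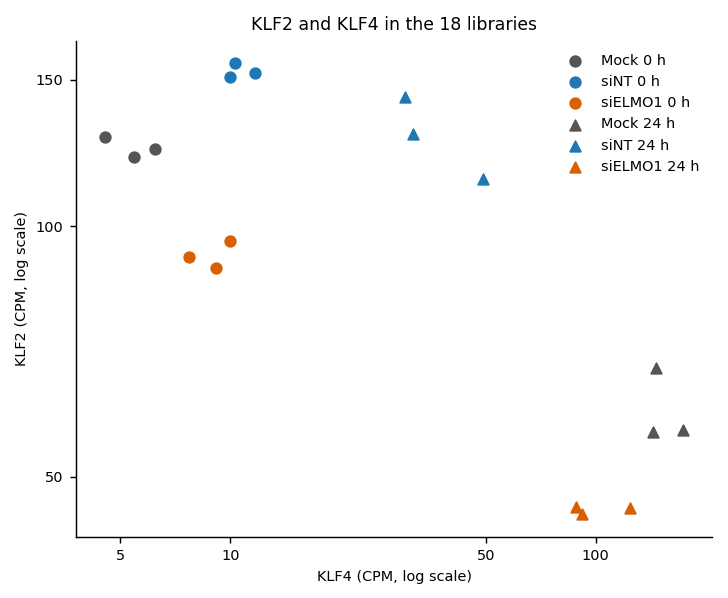
KLF4 against KLF2 in each of the 18 libraries, both in CPM on log axes, with circles for 0 h and triangles for 24 h. The Mock and siELMO1 libraries at 24 h lie at high KLF4 and low KLF2, while the siNT libraries at 24 h lie between 30.1 and 49.1 CPM of KLF4 and between 114 and 143 CPM of KLF2.

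The poly(I:C) responses of KLF2 and KLF4 differed between the transfections by direct test. The rise of KLF4 in siNT was smaller than in Mock by 3.04 on the log2 scale (log2 difference −3.04, SE 0.25, adjusted p = 9.8e-08, edgeR). In siELMO1 it exceeded siNT by 1.70 (SE 0.25, adjusted p = 3.8e-05, edgeR) and stayed below Mock (log2 difference −1.35, SE 0.25, adjusted p = 6.4e-04, edgeR). The KLF2 response in siNT lay above that in Mock by 0.78 (SE 0.10, adjusted p = 1.6e-05, edgeR), and that in siELMO1 lay below siNT (log2 difference −0.76, SE 0.10, adjusted p = 1.8e-05, edgeR). The KLF2 responses of siELMO1 and Mock differed by 0.03 (95% interval −0.19 to 0.24, adjusted p = 0.885, edgeR), which leaves room for a difference of that width in either direction. These 3 tests share the siNT, Mock and siELMO1 libraries among them and are not independent of each other.

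KLF13, a SIN3A-binding repressor that also activates CCL5 in lymphocytes, was lower at 24 h in all 3 transfections, as KLF2 was. The Mock libraries went from 117, 115 and 120 CPM to 45.6, 49.7 and 45.4 CPM. In siNT it went from 107, 93.5 and 102 CPM to 69.7, 72.0 and 62.4 CPM, and in siELMO1 from 167, 132 and 133 CPM to 58.7, 57.6 and 63.7 CPM. The 24 h libraries were below all 0 h libraries, and siNT again fell least. The log2 fold change was −1.32 in Mock (SE 0.08, adjusted p = 2.3e-10, edgeR), −0.57 in siNT (SE 0.08, adjusted p = 1.5e-05, edgeR) and −1.26 in siELMO1 (SE 0.08, adjusted p = 5.7e-10, edgeR). The response of siNT was above that of Mock by 0.76 (SE 0.12, adjusted p = 8.1e-05, edgeR), and that of siELMO1 was below siNT (log2 difference −0.70, SE 0.12, adjusted p = 1.4e-04, edgeR). Replicate 1 of siELMO1 at 0 h was also the highest library for KLF13, and without it the fall in siELMO1 was −1.14.

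KLF6 and KLF10, an injury-induced activator and a TGF-beta-inducible SIN3A-binding factor, were higher at 24 h. In Mock, KLF6 went from 152, 158 and 166 CPM to 277, 280 and 287 CPM. In siNT it went from 121, 117 and 131 CPM to 177, 175 and 180 CPM, and in siELMO1 from 174, 159 and 192 CPM to 181, 192 and 224 CPM. The 2 times overlapped in siELMO1 but not in Mock or siNT. The log2 fold change of KLF6 was 0.83 in Mock (adjusted p = 2.5e-08, edgeR), 0.53 in siNT (adjusted p = 9.6e-06, edgeR) and 0.18 in siELMO1 (adjusted p = 0.044, edgeR). The last of these calls was lost in 15 of 28 alternatives. Single libraries that ended it were each Mock library at 0 h, Mock at 24 h replicates 1 and 2, siNT at 0 h replicate 1, siNT at 24 h replicates 1 and 2, siELMO1 at 0 h replicates 1 and 2, and siELMO1 at 24 h replicate 3, without which the value was smallest (0.09, adjusted p = 0.297, edgeR). In Mock, KLF10 went from 60, 59.9 and 60.8 CPM to 87.5, 89.6 and 97.6 CPM. It went from 56.0, 62.5 and 62.1 CPM to 80.7, 82.0 and 79.9 CPM in siNT, and from 43.6, 44 and 47.6 CPM to 81.3, 84.4 and 94.1 CPM in siELMO1. The times did not overlap for KLF10 in any transfection, and its 24 h levels in Mock, siELMO1 and siNT overlapped from each to the next. Its log2 fold change was 0.60 in Mock, 0.43 in siNT and 0.94 in siELMO1 (adjusted p = 1.2e-07, 1.1e-05 and 5.3e-10, edgeR).

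KLF3, the CtBP-binding repressor, was highest in siELMO1 at 0 h, and its response to poly(I:C) in Mock differed from that in both siRNA conditions. In Mock it went from 78.8, 80.2 and 83.6 CPM to 109, 99.6 and 123 CPM. In siNT it went from 101, 101 and 109 CPM to 102, 94.0 and 105 CPM, and in siELMO1 from 133, 143 and 140 CPM to 122, 119 and 130 CPM. The Mock libraries rose without overlap (log2 fold change 0.45, SE 0.07, adjusted p = 1.3e-05, edgeR), the siNT libraries overlapped (−0.05, 95% interval −0.19 to 0.09, adjusted p = 0.567, edgeR), and the siELMO1 libraries fell slightly (−0.16, SE 0.07, adjusted p = 0.044, edgeR). The fall in siELMO1 was lost in 10 of 28 alternatives, at −0.16 to −0.14, 7 of them with a single library left out (siNT at 0 h replicate 1 or 2, siNT at 24 h replicate 1, siELMO1 at 0 h replicate 2 or 3, siELMO1 at 24 h replicate 1 or 2). The responses of siNT and siELMO1 lay below that of Mock (log2 differences −0.50 and −0.62, adjusted p = 5.4e-04 and 9.6e-05, edgeR). KLF3-AS1, which overlaps KLF3 on the other strand, had 6 to 31 counts per library against 5153 to 9749 for KLF3.

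KLF9, KLF11 and KLF7 were lower in abundance or moved little. KLF9, a SIN3A-binding factor induced by glucocorticoids and thyroid hormone, lay between 6.88 and 14.1 CPM in all libraries. It rose in siELMO1 (log2 fold change 0.47, SE 0.10, adjusted p = 9.2e-04, edgeR) and was at −0.17 in siNT (95% interval −0.39 to 0.05, adjusted p = 0.181, edgeR). In Mock it was at 0.26 (adjusted p = 0.037, edgeR), a call lost in 11 of 28 alternatives, including the removal of any of the 6 Mock libraries (0.17, without Mock at 0 h replicate 3, to 0.27). KLF11, the other TGF-beta-inducible member, lay between 13.1 and 20.4 CPM and fell in siELMO1 (−0.36, SE 0.07, adjusted p = 4.5e-04, edgeR). Its values in Mock (−0.07, adjusted p = 0.442, edgeR) and siNT (−0.17, adjusted p = 0.052, edgeR) did not pass, although 11 of 28 alternatives called the siNT value, at a log2 fold change of −0.22 to −0.17, among them the removal of Mock at 0 h replicate 2 or 3, siNT at 0 h replicate 2, or siELMO1 at 0 h replicate 1 or 3. KLF7, a factor of neuronal and adipose development, had the smallest spread of the members tested, its condition means differing by 1.21-fold at most, and its log2 fold changes with poly(I:C) were −0.11, 0.06 and −0.04 in Mock, siNT and siELMO1. The 95% intervals of these reached no further than −0.28 and 0.23. The lncRNA MYOSLID overlaps KLF7 on the other strand with 33 to 223 counts, against 2202 to 3738 for KLF7.

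As counts, 5 of the 9 members tested rose in Mock after poly(I:C), where 30.7% of the 15167 genes tested rose, and 2 fell, where 29.6% fell. In siNT 3 rose (28.6% of all genes) and 2 fell (25.2%), and in siELMO1 4 rose (28% of all genes) and 4 fell (26.9%). Over 2-fold, KLF4 rose and KLF2 and KLF13 fell in Mock and siELMO1, and KLF4 alone passed it in siNT. Of all genes, 8.6% rose and 5.92% fell past 2-fold in Mock, 7.71% and 3.68% in siELMO1, and 6.45% and 2.97% in siNT. KLF2 lay near this threshold in Mock and siELMO1 (−1.04 and −1.02), and at −0.99 in siELMO1 without siELMO1 at 0 h replicate 1. The median size of the log2 fold change was 0.60 for the members and 0.35 for all genes in Mock, 0.26 and 0.31 in siNT, and 0.47 and 0.31 in siELMO1. For the differences between responses, 2 members were higher and 4 lower in siNT than in Mock (15% and 16% of all genes). For siELMO1 against siNT, 3 were higher and 3 lower (16.7% and 17.8%), and for siELMO1 against Mock, 1 was higher and 4 were lower (13.8% and 14.6%). With 9 members, these counts say little beyond the background, and the results lie in the single members.

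**Figure D3:**
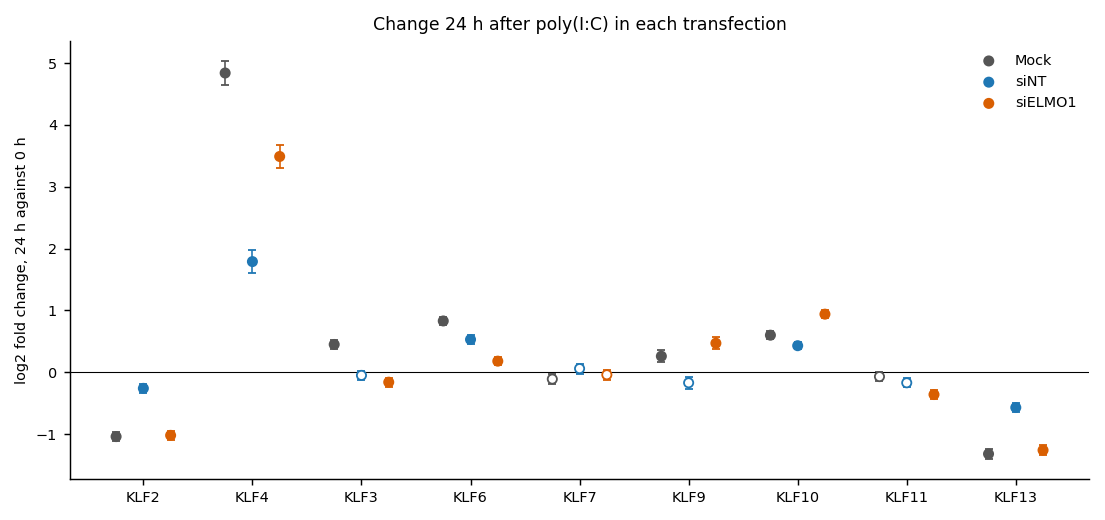
Log2 fold change at 24 h after poly(I:C) against 0 h for the 9 members tested, in Mock, siNT and siELMO1, with bars for the standard error. Filled points passed an adjusted p of 0.05 and open points did not. KLF4 lies at 4.84, 1.79 and 3.49, KLF2 at −1.04, −0.26 and −1.02, and KLF13 at −1.32, −0.57 and −1.26.

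Before poly(I:C), the siRNA conditions already differed from Mock and from each other. The comparisons at each time share their control libraries, so the values are given side by side. KLF2 was higher in siNT than in Mock at 0 h (log2 fold change 0.31, adjusted p = 1.6e-03, edgeR) and lower in siELMO1 than in Mock (−0.43, adjusted p = 7.9e-05, edgeR) and than in siNT (−0.74, SE 0.07, adjusted p = 8.2e-08, edgeR). Relative to Mock, KLF4 was higher in both siRNA conditions (0.98 in siNT and 0.73 in siELMO1, adjusted p = 2.8e-04 and 3.9e-03, edgeR), while siELMO1 and siNT differed by −0.25 (95% interval −0.64 to 0.14, adjusted p = 0.252, edgeR). KLF3 was higher in siELMO1 than in Mock (0.78, adjusted p = 2.5e-08, edgeR) and than in siNT (0.42, adjusted p = 2.8e-05, edgeR), and siNT was itself above Mock (0.36, adjusted p = 1.9e-04, edgeR). In siELMO1 KLF10 was below both controls by the same amount (−0.42 each, adjusted p = 1.7e-05 and 1.1e-05, edgeR), and siNT lay at 0.00 from Mock (95% interval −0.13 to 0.13, adjusted p = 0.983, edgeR).

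The remaining members at 0 h separated siNT from the other conditions or moved little. KLF6 was lower in siNT than in Mock (−0.36, adjusted p = 4.7e-04, edgeR) and higher in siELMO1 than in siNT (0.51, adjusted p = 1.0e-05, edgeR), and siELMO1 lay at 0.14 from Mock (adjusted p = 0.115, edgeR), or at 0.21 and past the threshold without siELMO1 at 0 h replicate 2. KLF9 was higher in siNT than in Mock (0.72, SE 0.10, adjusted p = 1.6e-05, edgeR) and lower in siELMO1 than in siNT (−0.53, adjusted p = 2.7e-04, edgeR), and siELMO1 lay at 0.19 from Mock (adjusted p = 0.136, edgeR). KLF13 was higher in siELMO1 than in Mock (0.30, adjusted p = 5.3e-03, edgeR) and siNT (0.52, adjusted p = 2.4e-05, edgeR). Without siELMO1 at 0 h replicate 1 these KLF13 values were 0.17 and 0.39 (adjusted p = 0.034 and 5.2e-05, edgeR), the first of them less than the value with it by more than 1.5 times. KLF13 was lower in siNT than in Mock (−0.22, adjusted p = 0.030, edgeR), a call lost without siNT at 0 h replicate 2 (−0.17) or 3 (−0.23). KLF7 was lower in siNT than in Mock (−0.20, adjusted p = 0.041, edgeR), a call lost without the same libraries (−0.18 and −0.19), and higher in siELMO1 than in siNT (0.27, adjusted p = 6.7e-03, edgeR), with libraries that overlapped. Against Mock the siELMO1 value of KLF7 was 0.07 (adjusted p = 0.504, edgeR), and it was 0.17 and passed without siELMO1 at 0 h replicate 1. KLF11 passed in none of these comparisons, its values lying between −0.12 and −0.02.

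At 0 h, 4 members were higher and 3 lower in siNT than in Mock, against 27.6% and 24% of all genes. In siELMO1 against Mock 3 were higher and 2 lower (27.9% and 22.4% of all genes), and in siELMO1 against siNT 4 were higher and 3 lower (31.3% of all genes in each direction). No member passed 2-fold at 0 h, where 2.2 to 8.38% of all genes passed it in a direction, so with 9 members this is near the background.

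Leaving out siELMO1 at 0 h replicate 1 changed few of the calls that use this condition. For the response to poly(I:C) in siELMO1, 7 members passed in place of 8, the call of KLF6 being lost (0.18, adjusted p = 0.080, edgeR). The other log2 fold changes of that response were then −0.99 for KLF2, −0.19 for KLF3, 3.59 for KLF4, −0.14 for KLF7, 0.45 for KLF9, 0.92 for KLF10, −0.39 for KLF11 and −1.14 for KLF13, and all but that of KLF7 passed. Against Mock at 0 h the values became −0.46 for KLF2, 0.81 for KLF3, 0.63 for KLF4, −0.39 for KLF10 and 0.17 for KLF13, all of which stayed called, and KLF7 was gained, making 6 members in place of 5. Against siNT at 0 h, KLF2 lay at −0.77, KLF3 at 0.45, KLF6 at 0.51, KLF7 at 0.37, KLF9 at −0.50, KLF10 at −0.39 and KLF13 at 0.39, the 7 members called with it. In the differences of response, siELMO1 against siNT gave −0.73 for KLF2, 1.80 for KLF4, −0.35 for KLF6, 0.62 for KLF9, 0.49 for KLF10 and −0.58 for KLF13. Against Mock those differences were −0.65 for KLF3, −1.24 for KLF4, −0.65 for KLF6, 0.31 for KLF10 and −0.32 for KLF11, and each of these 11 passed.

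At 24 h after poly(I:C), siNT had the highest KLF2 and the lowest KLF4 of the 3 conditions, and siELMO1 lay below Mock for both. KLF2 was 2.13-fold higher in siNT than in Mock (log2 fold change 1.09, SE 0.07, adjusted p = 3.0e-09, edgeR) and 2.82-fold lower in siELMO1 than in siNT (−1.49, SE 0.07, adjusted p = 6.5e-11, edgeR). At the same time KLF4 was 4.18-fold lower in siNT than in Mock (−2.06, SE 0.17, adjusted p = 2.8e-08, edgeR) and 2.73-fold higher in siELMO1 than in siNT (1.45, SE 0.17, adjusted p = 1.3e-06, edgeR). The log2 fold change of siELMO1 against Mock was −0.40 for KLF2 (adjusted p = 2.3e-04, edgeR) and −0.61 for KLF4 (SE 0.16, adjusted p = 4.9e-03, edgeR). No other member passed 2-fold at 24 h, where 1.8 to 4.83% of all genes passed it in a direction.

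Among the other members at 24 h, KLF6 was lower than in Mock in siNT (−0.66, adjusted p = 9.5e-07, edgeR) and in siELMO1 (−0.50, adjusted p = 2.4e-05, edgeR), and siELMO1 and siNT differed by 0.16 (95% interval 0.01 to 0.32, adjusted p = 0.072, edgeR), or by 0.23 and past the threshold without siELMO1 at 24 h replicate 1. KLF13 was higher than in Mock in siNT (0.54, adjusted p = 3.8e-05, edgeR) and in siELMO1 (0.35, adjusted p = 2.0e-03, edgeR). KLF9 was higher than in Mock in siELMO1 (0.40, adjusted p = 4.3e-03, edgeR) and in siNT (0.29, adjusted p = 0.030, edgeR), the latter lost in 6 of 28 alternatives at 0.21 to 0.30, 5 of them without a single library (any of the 3 Mock libraries at 24 h, or siNT at 24 h replicate 1 or 2). KLF11 was lower in siELMO1 than in Mock (−0.41, adjusted p = 1.8e-04, edgeR) and than in siNT (−0.28, adjusted p = 3.7e-03, edgeR). KLF3 was higher in siELMO1 than in siNT (0.30, adjusted p = 1.0e-03, edgeR) and lay at 0.16 from Mock (adjusted p = 0.057, edgeR). KLF10 was lower in siNT than in Mock (−0.18, adjusted p = 0.019, edgeR), a call lost without Mock at 24 h replicate 3 (−0.13, adjusted p = 0.108, edgeR), and siELMO1 lay at −0.08 from Mock and 0.10 from siNT (adjusted p = 0.294 and 0.185, edgeR). Without that Mock library 4 members passed in siNT against Mock, in place of 6. The replicate numbers were taken to pair the Mock and siNT libraries at 24 h, a choice made from residual correlations in these data. The replicate block covered all 18 libraries and was not a paired test of Mock and siNT alone. With it KLF3 was lower in siNT than in Mock (−0.14, adjusted p = 0.037, edgeR), where it had not passed without the block (−0.14, adjusted p = 0.092, edgeR). It also passed without Mock at 24 h replicate 2 (−0.21). KLF13 in siELMO1 lay at −0.18 from siNT (adjusted p = 0.074, edgeR). KLF7 did not pass in any comparison at 24 h, with values from −0.03 to 0.17. Without siELMO1 at 0 h replicate 1, which takes part only through the shared spread, the KLF7 (0.17) and KLF13 (−0.18) values of siELMO1 against siNT passed, making 6 members in place of 4, and KLF13 also passed without siNT at 24 h replicate 3 (−0.24).

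At 24 h, 3 members were higher and 3 lower in siNT than in Mock, against 25.2% and 24.9% of all genes. In siELMO1 against Mock 2 were higher and 4 lower (21.6% and 22% of all genes), and in siELMO1 against siNT 2 were higher and 2 lower (26% and 26.5% of all genes). The median size of the log2 fold change between siELMO1 and siNT was 0.18 for the members and 0.30 for all genes.

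**Figure D4:**
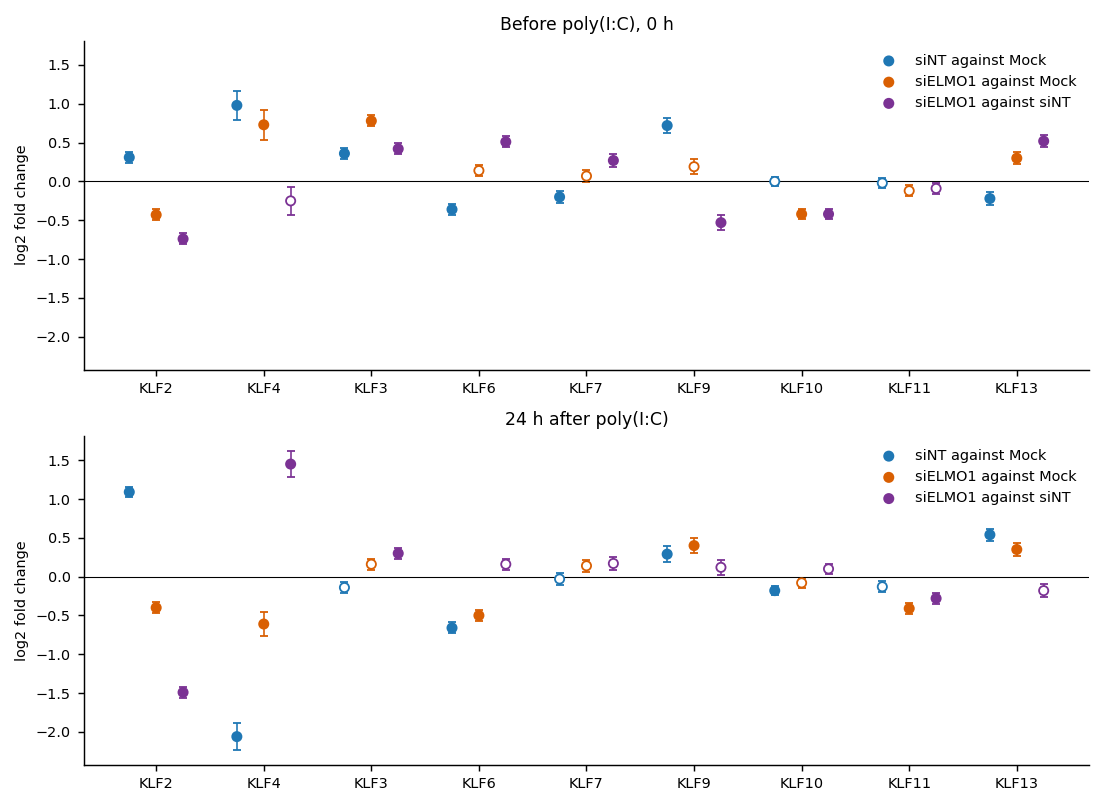
Log2 fold changes between transfections for the 9 members tested, at 0 h (upper) and 24 h after poly(I:C) (lower), with bars for the standard error, filled points where the adjusted p was below 0.05 and open points elsewhere. KLF2 and KLF4 lie on opposite sides of 0 at 24 h for siNT against Mock (1.09 and −2.06) and for siELMO1 against siNT (−1.49 and 1.45).

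Genes known to act upstream of KLF2 and KLF4 were all expressed, and none changed in Mock after poly(I:C) by as much as KLF4. The list held the MEK5 and ERK5 kinases and their activators (MAP3K2, MAP3K3, MAP2K5, MAPK7), the MEF2 factors, and the HEG1, KRIT1, CCM2 and PDCD10 genes of the CCM complex, which restrains this route. Of the 11, 5 rose and 2 fell in Mock after poly(I:C), 5 rose and 2 fell in siNT, and 1 rose and 6 fell in siELMO1, with median log2 fold changes of 0.17, 0.17 and −0.19 against 0.01, 0.01 and 0.00 for all genes. Between siELMO1 and siNT 5 were higher and 3 lower at 24 h (median 0.05) and 6 higher and 3 lower at 0 h (median 0.30). In siNT against Mock 2 were higher and 4 lower at 0 h and 1 higher and 1 lower at 24 h, and in siELMO1 against Mock 5 were higher and 0 lower at 0 h and 2 higher and 3 lower at 24 h. The shares of all genes higher and lower were 30.7% and 29.6% in Mock, 28.6% and 25.2% in siNT and 28% and 26.9% in siELMO1 after poly(I:C), and 26% and 26.5% for siELMO1 against siNT at 24 h. At 0 h they were 31.3% in each direction for siELMO1 against siNT and 27.9% and 22.4% for siELMO1 against Mock. For siELMO1 against Mock at 24 h they were 21.6% and 22%. For siNT against Mock they were 27.6% and 24% at 0 h and 25.2% and 24.9% at 24 h. With 11 genes, counts of 2 to 4 in a direction are near these shares. Without siELMO1 at 0 h replicate 1, a change made after seeing the data, 1 rose and 6 fell in siELMO1 after poly(I:C), 6 were higher and 0 lower than in Mock at 0 h, and 6 were higher and 2 lower than in siNT. MEF2C, a MEF2 factor that activates the KLF2 promoter, changed most. MEF2C rose from 18.4, 18.3 and 18.4 CPM to 44, 42.9 and 48.1 CPM in Mock (log2 fold change 1.29, SE 0.13, adjusted p = 1.2e-07, edgeR), while its 24 h levels were 20.5, 19.9 and 27.6 CPM for siNT and 41.8, 37.1 and 55.8 CPM for siELMO1 (0.98, SE 0.13, adjusted p = 5.9e-06, edgeR). Its libraries at 24 h were thus lower in siNT than in either other condition, as those of KLF4 were. MEF2C already differed at 0 h, at 12.2 ± 0.818 CPM in siNT and 32.8 ± 2.13 CPM in siELMO1. Its log2 fold change with poly(I:C) was 0.89 in siNT and 0.45 in siELMO1 (adjusted p = 1.8e-05 and 5.8e-03, edgeR). KLF4, by contrast, rose more in siELMO1 than in siNT.

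Endothelial genes that KLF2 or KLF4 are known to raise did not move as a block. Of 13 listed, 12 were matched by symbol in the matrix (SLC9A3R2 was not) and 10 passed the filter. Of these, 4 rose and 3 fell in Mock after poly(I:C), 5 rose and 3 fell in siNT, and 5 rose and 3 fell in siELMO1 (median log2 fold changes −0.08, 0.26 and 0.16). Between siELMO1 and siNT at 24 h 6 were higher and 3 lower (median 0.75), and at 0 h 5 were higher and 2 lower (median 0.32). Against Mock, siNT had 2 higher and 4 lower at 0 h and 3 higher and 5 lower at 24 h, and siELMO1 had 5 higher and 2 lower at 0 h and 3 higher and 2 lower at 24 h. The background shares of all genes for the 3 poly(I:C) comparisons (25.2 to 30.7% in a direction) come to about the 3 fallen of 10 seen here. For siELMO1 against siNT they were 26% higher and 26.5% lower at 24 h and 31.3% each way at 0 h, so the counts lower were near the background. For siNT against Mock they were 27.6% higher and 24% lower at 0 h and 25.2% and 24.9% at 24 h. For siELMO1 against Mock they were 27.9% and 22.4% at 0 h and 21.6% and 22% at 24 h. With siELMO1 at 0 h replicate 1 left out, 4 rose and 3 fell after poly(I:C) in siELMO1, 5 were higher and 3 lower than in Mock at 0 h, and 5 were higher and 2 lower than in siNT. THBD, the thrombin-binding anticoagulant receptor thrombomodulin, was highest in siNT and lowest in siELMO1 at 24 h, as KLF2 was, although at 0 h its mean was highest in Mock (215 ± 6.37 CPM, against 197 ± 2.93 in siNT and 165 ± 4.03 in siELMO1). At 24 h the THBD libraries held 88.7, 106 and 69.7 CPM for Mock, 211, 218 and 163 CPM for siNT, and 59.3, 58.7 and 44.5 CPM for siELMO1. The siELMO1 level was lower than that of siNT (−1.86, SE 0.13, adjusted p = 3.9e-09, edgeR). In siNT it did not move with poly(I:C) by more than its error (0.00, SE 0.13, adjusted p = 0.999, edgeR). ITGB4, an integrin subunit, fell most in Mock, from 29.3 ± 2.41 to 5.82 ± 1.18 CPM (log2 fold change −2.34, SE 0.23, adjusted p = 9.4e-08, edgeR).

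Endothelial genes that KLF2 or KLF4 are known to restrain were mostly higher in siELMO1, and so were general endothelial markers. Of 10 such markers tested, 8 were higher and 1 lower than in siNT at 0 h, and 7 and 0 at 24 h. Against Mock these counts were 7 and 0 at 0 h, and 9 and 0 at 24 h. KDR is in both lists. The list of restrained genes, like the others, was written with earlier results of these data known, so its counts are a description and not independent support. Of 9 listed, 7 passed the filter, and the adhesion molecules VCAM1 and SELE did not, with at most 11 counts in a library. In siELMO1 6 of the 7 were higher than in siNT and 0 lower at 24 h (median log2 fold change 1.35, against −0.01 for all genes), and 5 were higher and 0 lower at 0 h (median 1.63). In siELMO1 against Mock 6 were higher and 0 lower at 0 h and 5 higher and 1 lower at 24 h (medians 0.87 and 0.57), and in siNT against Mock 1 was higher and 2 lower at 0 h and 1 higher and 5 lower at 24 h (medians −0.27 and −1.03). After poly(I:C) 4 rose and 1 fell in Mock, 4 rose and 2 fell in siNT, and 3 rose and 1 fell in siELMO1 (medians 1.00, 0.80 and 0.38). Of all genes, 26% were higher and 26.5% lower in siELMO1 than in siNT at 24 h and 31.3% each way at 0 h, and 27.9% were higher than in Mock at 0 h and 21.6% at 24 h. The shares lower in siELMO1 than in Mock were 22.4% at 0 h and 22% at 24 h. For siNT against Mock, 27.6% of all genes were higher and 24% lower at 0 h, and 25.2% and 24.9% at 24 h. The poly(I:C) counts stand beside 30.7% risen and 29.6% fallen in Mock, 28.6% and 25.2% in siNT, and 28% and 26.9% in siELMO1. Leaving out siELMO1 at 0 h replicate 1 left the 3 counts that use that condition as given, with medians of 0.25 after poly(I:C), 0.99 against Mock and 1.71 against siNT. CCL2, a monocyte chemokine, rose from 15.8, 15.2 and 17.5 CPM to 293, 242 and 343 CPM in Mock (log2 fold change 4.17, SE 0.14, adjusted p = 2.6e-14, edgeR). THBS1, an antiangiogenic matrix protein, held 596, 571 and 775 CPM in the siNT libraries at 24 h and 3890, 3860 and 4140 CPM in those of siELMO1 (2.61, SE 0.12, adjusted p = 4.1e-11, edgeR). All siELMO1 libraries exceeded all siNT libraries for THBS1. With poly(I:C) the log2 fold change of THBS1 was −0.12 in Mock, −0.88 in siNT and −0.30 in siELMO1. Whether THBS1 follows KLF2 or KLF4 was not tested.

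Of 13 cofactors and ubiquitin ligases of Kruppel-like factors, among them CTBP1, CTBP2, SIN3A, EP300, WWP1 and FBXW7, all passed the filter. After poly(I:C) 4 rose and 5 fell in Mock, 6 rose and 5 fell in siNT, and 1 rose and 4 fell in siELMO1 (medians −0.04, 0.03 and −0.09). Against Mock, 5 were higher and 1 lower in siNT at 0 h and 7 higher and 0 lower at 24 h, and 9 were higher and 2 lower in siELMO1 at 0 h and 5 higher and 1 lower at 24 h. Between siELMO1 and siNT 7 were higher and 3 lower at 0 h and 2 higher and 5 lower at 24 h. The shares of all genes higher and lower in these comparisons were 30.7% and 29.6%, 28.6% and 25.2%, and 28% and 26.9% after poly(I:C). Against Mock they were 27.6% and 24% in siNT at 0 h, 25.2% and 24.9% in siNT at 24 h, 27.9% and 22.4% in siELMO1 at 0 h, and 21.6% and 22% in siELMO1 at 24 h. Between siELMO1 and siNT they were 31.3% each way at 0 h and 26% and 26.5% at 24 h. The 4 of 13 risen in Mock and the 3 of 13 lower in siELMO1 than in siNT at 0 h are near those shares. In the fit that leaves out siELMO1 at 0 h replicate 1, 7 in place of 4 fell in siELMO1 after poly(I:C) and 1 rose, 8 were higher and 2 lower than in Mock at 0 h, and 8 were higher and 3 lower than in siNT. WWP1, a ligase that ubiquitinates KLF2 and KLF5, fell most in Mock after poly(I:C), from 57.4 ± 2.59 to 36.1 ± 1.58 CPM (log2 fold change −0.67, SE 0.06, adjusted p = 3.9e-08, edgeR). CTBP2, a corepressor that KLF3 recruits, held 106, 116 and 100 CPM in the siNT libraries at 24 h and 62.9, 63.1 and 57.9 CPM in those of siELMO1 (−0.81, SE 0.06, adjusted p = 4.7e-09, edgeR), while KLF3 itself was higher in siELMO1.

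In the rest of the family, 2 of 8 other KLF genes passed the filter, KLF12 and KLF16. The others (KLF1, KLF8, KLF14, KLF15, KLF17 and KLF18) had at most 9 counts in a library. KLF12, a CtBP-binding repressor like KLF3, fell from 28.3, 31.3 and 31.2 CPM to 12.2, 15.2 and 12.9 CPM in Mock (log2 fold change −1.17, SE 0.09, adjusted p = 2.0e-09, edgeR). At 24 h the KLF12 libraries held 24.9, 22.3 and 20 CPM for siNT and 11.6, 12.6 and 11.6 CPM for siELMO1 (−0.91, SE 0.09, adjusted p = 1.5e-07, edgeR), so that it too had siNT as the highest condition at that time. Either 1 or both of these genes passed in each comparison: 0 rose and 1 fell in each transfection after poly(I:C), 1 was higher in siNT than in Mock at each time, 1 was lower in siELMO1 than in Mock at each time, and both were lower in siELMO1 than in siNT at each time. KLF16 also rose in siELMO1 after poly(I:C) without siELMO1 at 0 h replicate 1. With 2 genes, no reading against the shares of all genes given above is possible.

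By the Pearson correlation of log2(CPM + 0.5) over the 18 libraries, which share 6 conditions, the genes most like KLF2 were TMEM200C (0.977), PRICKLE1 (0.972) and ADK (0.972). Those most like KLF4 were LRIG3 (0.992), ZC3H12C (0.989) and KDM6A (0.987), and those most like KLF13 were CERK (0.981), PNMA1 (0.978) and RNF187 (0.977). For KLF10 they were STX11 (0.984), SCLT1 (0.974) and PCGF5 (0.974), for KLF6 UBXN4 (0.963), PARP6 (0.961) and LETM2 (0.954), and for KLF3 YPEL5 (0.956), NRP1 (0.948) and GCC2 (0.942). For KLF11 they included ZC2HC1A (0.913) and PRELID3B (0.874), and they were, for KLF9, TEAD1 (0.906), CD58 (0.903) and FZD5 (0.903), and, for KLF7, NUS1P1 (0.858), ZNF354A (0.827) and LINC01088 (0.806). No other Kruppel-like factor was among the 3 nearest genes of any member.

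At the transcript level, a single annotated transcript carried nearly all counts of KLF2, KLF3, KLF7, KLF9 and KLF13, with a lowest share of 96.1% in any library, and that of KLF5 carried all of its few counts. For KLF11 the leading transcript held at least 86.2%. KLF4, KLF6 and KLF10 were split among transcripts. KLF4-205, a transcript that retains an intron, held 2.69, 7.96 and 4.74% of the KLF4 counts in Mock at 0 h, 1.66, 10.4 and 8.53% in siNT, and 3.93, 33.6 and 22.3% in siELMO1. At 24 h it held 2.90, 0.838 and 1.03% in Mock, 1.57, 1.25 and 0.749% in siNT, and 9.48, 1.44 and 1.73% in siELMO1. The highest shares were those of siELMO1 at 0 h replicates 2 and 3, the libraries with the high mitochondrial share, and they rest on 122 and 86 counts. KLF6-207, a coding transcript beside the leading KLF6-206, held 1.19 to 19.1% of the KLF6 counts at 0 h and 2.29 to 9.28% at 24 h. KLF10-202 held 3.33 to 37.5% of the KLF10 counts at 0 h and 5.90 to 22.7% at 24 h. For each of these 3 transcripts the shares of 1 condition spread by more than the condition means differed at 0 h, and with 3 libraries against 3 an exact permutation test could not give a p below 0.1, so no difference is called.

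**Figure D5:**
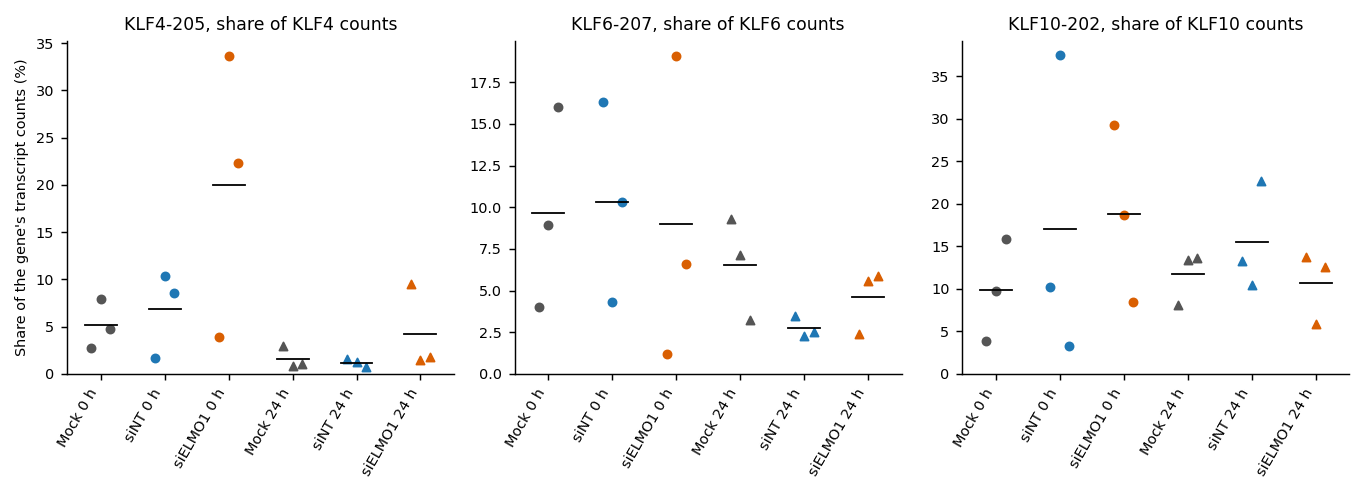
Share of each gene's transcript counts held by KLF4-205, KLF6-207 and KLF10-202 in the 18 libraries, in percent, with circles for 0 h, triangles for 24 h and a bar for the mean of 3 libraries. At 0 h the libraries of a condition spread widely, from 3.93 to 33.6% for KLF4-205 in siELMO1 and from 3.33 to 37.5% for KLF10-202 in siNT.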

How the data were processed

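Per the labels and the study's methods, total RNA of 18 EA.hy926 samples was made into stranded libraries, and 100 bp were read from both ends. The authors aligned the reads to GRCh38 with STAR and made estimated counts (expected counts) per gene and per transcript with StringTie; the submitters' processing notes also name limma. Both deposited matrices hold whole numbers, not normalized for depth or length. Strand use in counting is not given in the sources used here, so reads of a gene and of an overlapping gene on the other strand may be mixed. KLF pseudogenes had 0 to 4 counts per library.

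The filter of the study was used (100 counts or more in all, and 1 CPM or more in some library), which left 15167 of 62754. edgeR 4.0.16 (R 4.3.3) fitted all 18 libraries with a mean per condition, TMM factors (0.958 to 1.06) and the quasi-likelihood test for 12 comparisons, and p-values were adjusted by Benjamini-Hochberg over all genes tested (two-sided, called below 0.05). CPM are TMM-scaled. TPM and transcript shares came from the transcript counts and Gencode 44 lengths. Steps were tested on simulated data. Alternatives were DESeq2 1.42.0, limma 3.58.1 voom with and without a random replicate effect, a replicate block, other scaling and filters, only the libraries compared, mitochondrial genes left out, and each library left out.

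The members, lists and comparisons were chosen with earlier results of these data known. All 10 members were named in every comparison, with the 3 genes most correlated with each (1 of those for KLF11 is not reported here), and from each list the gene with the largest change in Mock after poly(I:C) and in siELMO1 against siNT at 24 h. The study's methods call the replicates biological and the labels do not say what separated them, so p-values measure the spread between these samples. Of 45 same-numbered pairs of libraries, 15 had residuals correlated above 0.1 (median 0.04). In the Mock and siNT conditions at 24 h all 3 pairs did (0.215, 0.277 and 0.326), so the numbers were taken to pair those libraries. That choice was made after seeing the correlations, and libraries with different numbers were not compared. Counting intervals and floors cover counting error only and take each count as independent.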

Additional observations from a re-analysis of the deposited data

Results flagged for a closer look

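Each value here is a poly(I:C) response that differed between transfections by a direct test of the difference (edgeR, adjusted p below 0.05), given as the log2 response of the first condition less that of the second. In siNT against Mock, KLF4 was at −3.04, KLF2 at 0.78, KLF13 at 0.76, KLF3 at −0.50, KLF9 at −0.43 and KLF6 at −0.30. The calls for KLF6 and KLF9 were lost in 14 and 11 of 28 alternatives, among them the removal of any Mock library for KLF6 (−0.31 to −0.25) and of any Mock library other than replicate 1 at 0 h for KLF9 (−0.43 to −0.35), and of siNT at 0 h replicates 1 and 3 and siNT at 24 h replicate 2 for both, siNT at 24 h replicate 1 for KLF6 and replicate 3 for KLF9. Without some of these libraries 4 members passed in place of 6. In siELMO1 against siNT, KLF4 was at 1.70, KLF2 at −0.76, KLF13 at −0.70, KLF9 at 0.64, KLF10 at 0.51 and KLF6 at −0.34. In siELMO1 against Mock, KLF4 was at −1.35, KLF6 at −0.64, KLF3 at −0.62, KLF10 at 0.34 and KLF11 at −0.29, the last lost in 14 of 28 alternatives, among them without Mock at 0 h or 24 h replicate 1 or 2, siNT at 0 h replicate 1, siELMO1 at 0 h replicate 3, or siELMO1 at 24 h replicate 1 or 2 (−0.29 to −0.23). For KLF2, KLF4 and KLF13 the siNT response was the smallest of the 3, and the same siNT libraries take part in both of the comparisons that show it. The study reported massive death of siNT cells after poly(I:C), much less death in Mock cells, and inhibited apoptosis in siELMO1 cells. It also described transfected siRNA as a stimulus of the receptor that poly(I:C) activates, so both siRNA conditions had been stimulated before poly(I:C). What sets siNT apart, and the part of cell death or of the siRNA itself in it, was not tested.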

How the results depend on the processing

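Of 72 member values called over the 12 comparisons, 60 stayed called in the same direction in all 28 alternatives, and no called value changed sign in any. Among 3024 values over members, comparisons and alternatives, 89 lost the call, 32 gained it, and 11 that were not called in either fit changed sign. Values gained included KLF3 in siELMO1 against Mock at 24 h, which 6 alternatives called, among them those without Mock at 24 h replicate 3 (0.24) and without siELMO1 at 0 h replicate 1 (0.16). Calls lost under at most 3 alternatives and not given above were KLF13 in siELMO1 against Mock at 0 h, fitted on the libraries compared alone (0.26), and KLF6 in the difference of responses of siELMO1 and siNT without a filter (−0.31). Counts of members called stayed within 1.5 times the main count. With the replicate block in edgeR the counts were 6 in siNT after poly(I:C) in place of 5, 7 in siNT against Mock at 24 h in place of 6, 6 in siELMO1 against Mock at 0 h in place of 5, 7 in siELMO1 against Mock at 24 h in place of 6, and 5 in siELMO1 against siNT at 24 h in place of 4, and in the other 7 comparisons they equalled those without it. KLF3 in siNT against Mock at 24 h is given with the replicate block in the report, and no other call between Mock and siNT at 24 h changed with it. Library totals in place of TMM factors moved the median of all genes by −0.12 in Mock after poly(I:C), where KLF7 (−0.23) and KLF11 (−0.19) were then called, by amounts near that shift. Without a filter KLF5 was fitted and not called, with adjusted p from 0.479 to 1.000 over the 12 comparisons. Taking the longest annotated transcript as length moved the per-length means of KLF3, KLF7, KLF9 and KLF11 by more than 1 SD, that of KLF7 from 14.1 to 16.9 TPM. Depth limits KLF5 and the transcript shares of KLF4 at 0 h, which rest on 8 to 122 counts of KLF4-205.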

Other observations

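The SP factors are zinc finger relatives of the Kruppel-like factors that bind GC boxes. Of 9 SP genes 5 passed the filter. After poly(I:C) 3 rose and 0 fell in Mock, 2 rose and 1 fell in siNT, and 1 rose and 0 fell in siELMO1, with median log2 fold changes of 0.17, 0.12 and 0.06. In siNT against Mock 1 was higher and 1 lower at 0 h and 0 higher and 1 lower at 24 h. In siELMO1 against Mock 1 was higher and 2 lower at 0 h and 1 higher and 3 lower at 24 h, and in siELMO1 against siNT 0 were higher and 2 lower at 0 h and 1 higher and 1 lower at 24 h. The shares of all genes called were 25.2 to 30.7% in a direction after poly(I:C), 21.6 to 27.9% against Mock and 26 to 31.3% between siELMO1 and siNT, and with 5 genes these counts are not told apart from them. Without siELMO1 at 0 h replicate 1, 2 in place of 0 were higher in siELMO1 than in siNT at 0 h and 2 in place of 1 were higher than in Mock. SP6, an ectodermal factor of low abundance here, had the largest change in Mock, from 0.184, 0.419 and 0.371 CPM to 1.54, 0.795 and 0.514 CPM (log2 fold change 1.53, SE 0.41, adjusted p = 3.7e-03, edgeR). SP4, a factor studied mostly in neurons, had the largest change between siELMO1 and siNT at 24 h, at 10.7, 12.4 and 11.2 CPM against 6.29, 7.74 and 10.8 CPM (0.46, SE 0.14, adjusted p = 0.013, edgeR), with libraries that overlapped.

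Markers of other cell types were followed by fixed lists. Of 7 mesenchymal markers 2 passed the filter, with DCN and LUM at 0 in every library. ACTA2, a contractile actin, carried their rise in Mock after poly(I:C) (from 8.57 ± 1.34 to 18.9 ± 1.73 CPM). Of 3 leukocyte markers CD68 alone passed, CD3E was at 0 and PTPRC reached 0.497 CPM at most. CD68, a lysosomal protein that is not confined to leukocytes, was at 63.1 ± 11.6 CPM in Mock at 0 h and 247 ± 33.1 CPM at 24 h (log2 fold change 1.97, SE 0.15, adjusted p = 3.3e-09, edgeR).

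VWF had its highest level in siELMO1 at 24 h, at 18.0, 19.9 and 42.9 CPM, against 4.36, 3.95 and 5.55 CPM in siNT (log2 fold change 2.54, SE 0.26, adjusted p = 4.1e-07, edgeR). PECAM1 fell most of the endothelial markers in Mock, from 161, 148 and 186 CPM to 78.7, 47.6 and 102 CPM (−1.12, SE 0.23, adjusted p = 3.9e-04, edgeR). Of the epithelial markers, EPCAM fell most in Mock, from 1.07 ± 0.160 to 0.326 ± 0.150 CPM (−1.70, SE 0.46, adjusted p = 3.9e-03, edgeR), and MUC1 differed most between siELMO1 and siNT at 24 h (5.39 ± 0.345 against 2.77 ± 0.758 CPM, 0.96, SE 0.24, adjusted p = 2.7e-03, edgeR).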
